A study of Nicotiana tabacum with 9 samples.

Results

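Genes for cytochrome P450s, enzymes of the phenylpropanoid and flavonoid pathways, and UDP-glycosyltransferases were examined among tobacco genes with a listed AmMIXTA or NtZFP8 peak. They were chosen by words in the gene descriptions of the authors' gene tables, at any listed score, and number 31 of the 1884 genes in either table. Binding was measured by DNA affinity purification sequencing (DAP-seq), in which a tagged protein made in wheat germ extract holds back fragments of purified genomic DNA. The groups were HALO-tagged AmMIXTA, an R2R3-MYB protein of snapdragon, HALO-tagged NtZFP8, a C2H2 zinc finger protein of tobacco, and a HALO-tagged nuclear GFP as negative control, with 3 replicates each. All 9 samples used DNA of leaf primordia from 3 wild-type plants of Nicotiana tabacum Petit Havana SR1. This DNA was purified and sonicated, so neither protein met chromatin, and AmMIXTA was tested on DNA of a plant that is not its own. Each protein has 1 list of peaks called by the authors against GFP. Every score below is the authors' peak shape score, a number without a unit that ranks peaks within a list. There is no value per replicate and the read depth is unknown, so the spread over the 3 replicates is not known and nothing was tested across samples.

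The phenylpropanoid pathway turns phenylalanine into cinnamic acid derivatives, which feed lignin, flavonoids and phenolic esters and amides. Phenylalanine ammonia-lyase opens it, and cinnamate 4-hydroxylase, itself a cytochrome P450, follows. Cytochrome P450s are haem enzymes that insert oxygen into small molecules, and UDP-glycosyltransferases attach sugars to them. R2R3-MYB proteins are known in many plants as regulators of phenylpropanoid and flavonoid genes, and glandular trichomes of tobacco are sites of specialised metabolism.

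AmMIXTA had peaks at 28 of the 31 genes, and NtZFP8 had peaks at 14. Of all 1884 genes in either table, 1662 were in the AmMIXTA table and 974 in that of NtZFP8. Genes entered the set only with a listed peak of either protein, so no preference is read from these counts. The authors' criteria, per the series' design text, are a score above 2 and a p-value under 0.05. For AmMIXTA, 20 of the 28 listed genes passed them (71.4%, 95% Wilson interval 52.9 to 84.7), against 71.9% of all 1662 genes in its table. For NtZFP8, 9 of 14 passed (64.3%, 38.8 to 83.7), against 77.4% of 974. The AmMIXTA share of the enzyme genes thus lay near that of all genes in its table. The NtZFP8 share was lower than that of its table, which lay inside the wide interval. No difference is read from 14 genes. Of the 31 genes, 7 passed for both proteins, 13 for AmMIXTA only, 2 for NtZFP8 only and 9 for neither. Over all 1884 genes, 31.4% passed for both, 32.0% for AmMIXTA only, 8.6% for NtZFP8 only and 28.0% for neither. Of the 752 genes in both tables, 78.7% passed for both, and among the enzyme genes in both tables it was 7 of 11. AmMIXTA and NtZFP8 share their GFP control libraries, so nothing is read from the genes they have in common.

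**Figure D1:**
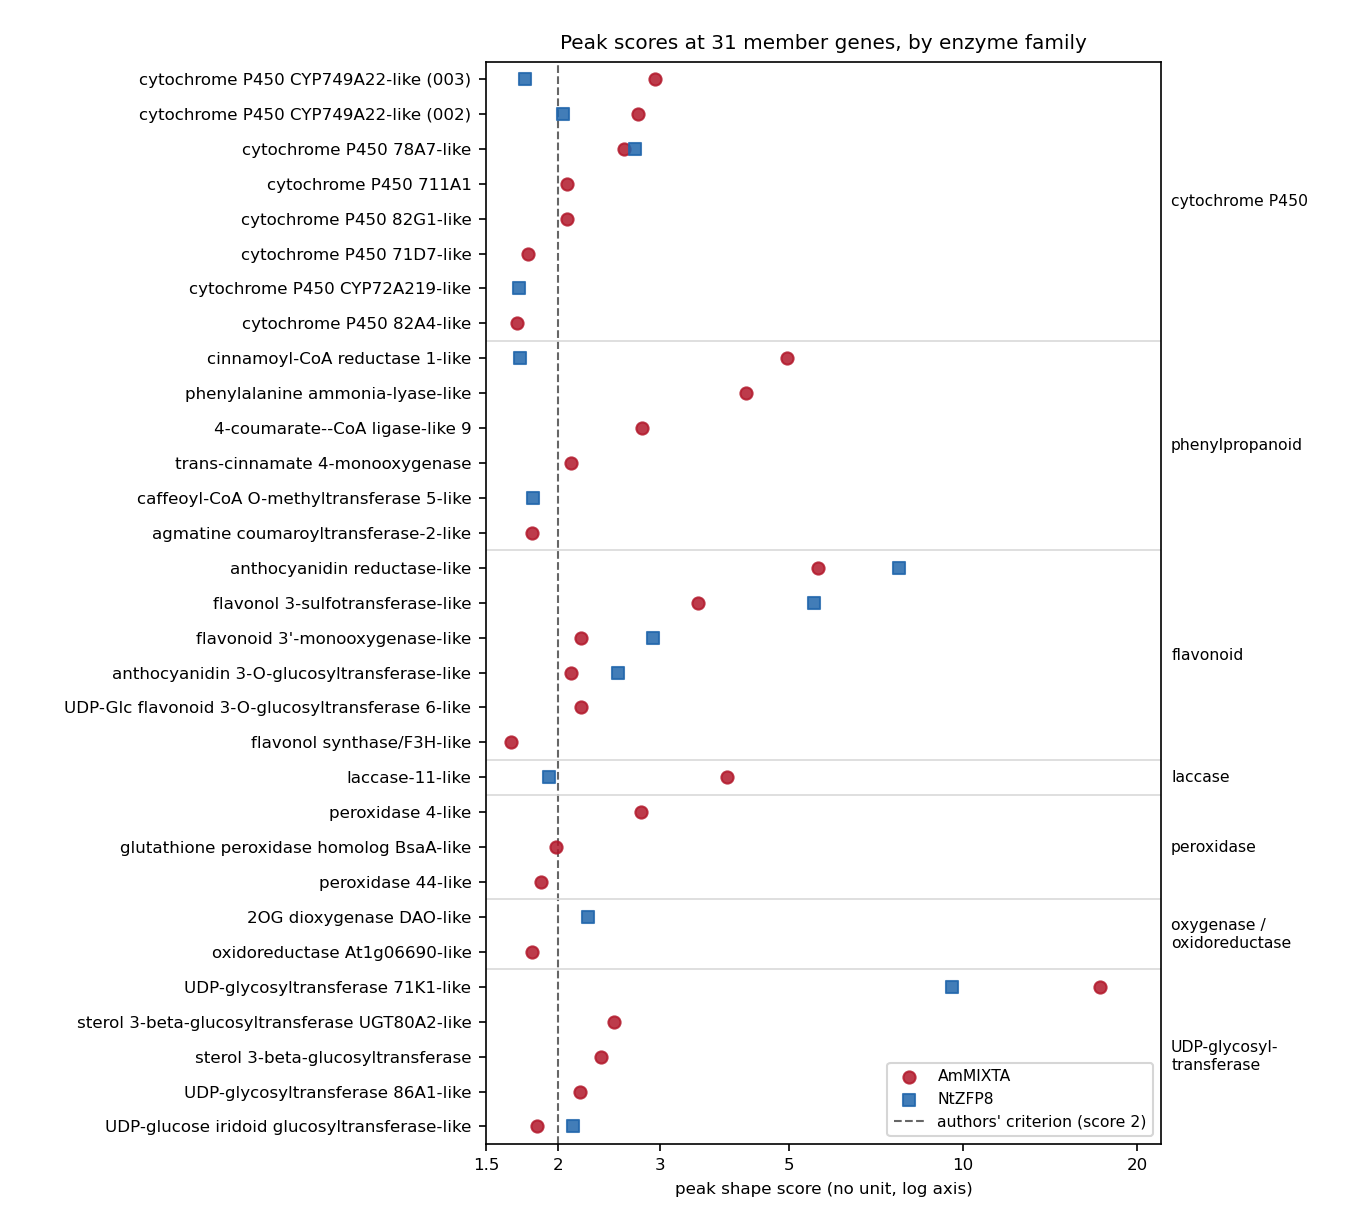
Peak shape score (horizontal, log axis, no unit) of each of the 31 genes (rows, grouped by enzyme family) for AmMIXTA (circles) and NtZFP8 (squares), with the authors' criterion at a score of 2 as a dashed line. UDP-glycosyltransferase 71K1-like stands apart at 17.27 for AmMIXTA and 9.58 for NtZFP8, and most other points lie between 1.66 and 3.

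UDP-glycosyltransferases held the highest peak of the whole set. UDP-glycosyltransferase 71K1-like (LOC107796811), of a type named for an apple enzyme that glucosylates phloretin, had an AmMIXTA peak at 32007 to 32442 of sequence NW_015927246.1 with a score of 17.27 (the authors' p-value 3.86e-67). Its NtZFP8 peak, at 32155 to 32434, had a score of 9.58 (the authors' p-value 4.76e-22). Ranked by the highest peak of each gene, it was number 23 of 1662 genes for AmMIXTA and number 80 of 974 for NtZFP8. The 2 centres lay 4 bp apart, and the whole NtZFP8 peak lay inside the AmMIXTA peak. The other 4 genes of this family scored far less. Sterol 3-beta-glucosyltransferase UGT80A2-like (LOC107797116), of a type that makes steryl glucosides, had an AmMIXTA score of 2.50 at 16062 to 16536 of NW_015927726.1. A second sterol 3-beta-glucosyltransferase gene (LOC107760837) had 2.37 at 8046 to 8432 of NW_015871514.1, and UDP-glycosyltransferase 86A1-like (LOC107767129) had 2.18 at 31671 to 32052 of NW_015887213.1. These 3 were absent from the NtZFP8 table, and no NtZFP8 peak was listed on their sequences. UDP-glucose iridoid glucosyltransferase-like (LOC107775638) was the reverse case at the criterion, with 1.84 for AmMIXTA (557 to 955 of NW_015900850.1) and 2.12 for NtZFP8 (692 to 965). Its scores stand on either side of 2 although its peaks overlapped by 264 bp.

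The flavonoid and anthocyanin group held 6 genes. Of these, 5 of the 6 listed for AmMIXTA passed, and 4 of the 4 listed for NtZFP8. Over all listed genes, 71.9% passed for AmMIXTA and 77.4% for NtZFP8, and no difference is read from counts this small. Anthocyanidin reductase-like (LOC107792951), the branch enzyme that makes epicatechin for condensed tannins, scored 5.62 for AmMIXTA (20806 to 21178 of NW_015921812.1) and 7.77 for NtZFP8 (20895 to 21202). Flavonol 3-sulfotransferase-like (LOC107775088), of a type that sulfates flavonols, had 3.49 for AmMIXTA (99687 to 100027 of NW_015900207.1) and 5.53 for NtZFP8 (99759 to 100061). After UDP-glycosyltransferase 71K1-like, these genes had the highest NtZFP8 scores of the set, at ranks 116 and 183 of the 974 genes in that table. Flavonoid 3'-monooxygenase-like (LOC107781089), a P450 that adds a hydroxyl group to the flavonoid B ring, had 2.19 for AmMIXTA (33984 to 34436 of NW_015907074.1) and 2.91 for NtZFP8 (34121 to 34406). Anthocyanidin 3-O-glucosyltransferase-like (LOC107822886), which stabilises anthocyanidins with a sugar, had 2.10 for AmMIXTA (43763 to 44194 of NW_015832590.1) and 2.54 for NtZFP8 (43887 to 44212). The remaining pair had AmMIXTA peaks only. UDP-glucose flavonoid 3-O-glucosyltransferase 6-like (LOC107821088) scored 2.19 at 14245 to 14747 of NW_015827167.1. Flavonol synthase/flavanone 3-hydroxylase-like (LOC107814657), of the step into flavonols, scored 1.66 at 39459 to 39954 of NW_015789287.1, under the criterion. No description in either table contained the word chalcone, so neither chalcone synthase nor chalcone isomerase was counted under that name.

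The phenylpropanoid group, with the entry and monolignol steps, held 6 genes. Of these, 4 of the 5 listed for AmMIXTA passed (71.9% over all genes), and none of the 2 listed for NtZFP8 did (77.4%). Cinnamoyl-CoA reductase 1-like (LOC107808266), the first enzyme committed to monolignols, scored 4.96 for AmMIXTA (9880 to 10241 of NW_015945948.1) and 1.72, under the criterion, for NtZFP8 (10001 to 10210). The centres of its peaks lay 4 bp apart. Phenylalanine ammonia-lyase-like (LOC107802063) had 4.22 for AmMIXTA at 37907 to 38429 of NW_015935052.1, and no NtZFP8 peak was listed on that sequence. Its peak, of 523 bp, was the longest of the set. Trans-cinnamate 4-monooxygenase (LOC107826530), the next step, had 2.10 for AmMIXTA at 2910 to 3352 of NW_015844362.1. 4-coumarate--CoA ligase-like 9 (LOC107815751), an acyl-activating enzyme related to the ligase of the third step, had 2.79 at 24546 to 24890 of NW_015811787.1. The same peak was also assigned to a gene for COP9 signalosome subunit 3-like (LOC107815752), and it is the only peak of the set tied to a second gene. The remaining pair stayed under the criterion. Agmatine coumaroyltransferase-2-like (LOC107761506), of a type that makes hydroxycinnamic acid amides in barley, had 1.80 for AmMIXTA at 7994 to 8437 of NW_015873705.1. Caffeoyl-CoA O-methyltransferase 5-like (LOC107797097), a methylating enzyme of the monolignol route, had 1.81 for NtZFP8 at 50782 to 51089 of NW_015927699.1.

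Enzymes that oxidise monolignols and other phenolics outside the cell were few. Laccase-11-like (LOC107792419), named for a laccase that acts in lignification in Arabidopsis, had 3.91 for AmMIXTA (20595 to 21055 of NW_015800528.1) and 1.93, under the criterion, for NtZFP8 (20656 to 21071). These peaks overlapped by 400 bp. Peroxidase 4-like (LOC107781143), a secretory peroxidase, had 2.78 for AmMIXTA at 36224 to 36579 of NW_015907151.1. Peroxidase 44-like (LOC107800469) had 1.87 at 10715 to 11132 of NW_015788755.1. A glutathione peroxidase homolog BsaA-like gene (LOC107813066), which entered through the word peroxidase and is an antioxidant enzyme of another kind, had 1.98 for a peak that ran past the start of NW_015955154.1 and ended at 392. The peroxidase genes were not in the NtZFP8 table, and neither table held a description with the word dirigent.

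Cytochrome P450s named as such numbered 8. For AmMIXTA 5 of the 7 listed passed (71.9% over all genes), and for NtZFP8 2 of the 4 listed (77.4%). The scores of these P450 genes were low and close together, between 1.70 and 2.94. A pair of CYP749A22-like genes stood on 1 sequence, NW_015910483.1. At LOC107784002 the AmMIXTA peak (326 to 769) scored 2.75 and the NtZFP8 peak (472 to 748) scored 2.04, with centres 15 bp apart. At LOC107784003 the AmMIXTA peak (8011 to 8392) scored 2.94 and the NtZFP8 peak (8487 to 8744) scored 1.75. At this second gene the peaks did not touch. A gap of 94 bp separated them and the centres lay 361 bp apart, which makes it the only gene of the set listed for both proteins with separate peaks. Cytochrome P450 78A7-like (LOC107759035), of a family known in Arabidopsis for organ growth, had 2.60 for AmMIXTA (3923 to 4304 of NW_015865471.1) and 2.71 for NtZFP8 (4013 to 4304). Cytochrome P450 711A1 (LOC107781156), named for the Arabidopsis enzyme of strigolactone synthesis, had 2.07 for AmMIXTA at 122031 to 122414 of NW_015907157.1. Cytochrome P450 82G1-like (LOC107795760), named for an Arabidopsis enzyme of homoterpene synthesis, had the same score of 2.07 at 48970 to 49346 of NW_015925749.1. The other 3 were under the criterion. Cytochrome P450 71D7-like (LOC107792067) had 1.77 for AmMIXTA at 63179 to 63677 of NW_015920662.1. Cytochrome P450 82A4-like (LOC107784763) had 1.70 for AmMIXTA at 1 to 403 of NW_015911452.1. Cytochrome P450 CYP72A219-like (LOC107800189) had 1.71 for NtZFP8 at 2602 to 3016 of NW_015932257.1.

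The last 2 genes came in through words for oxygenases and oxidoreductases. A 2-oxoglutarate-dependent dioxygenase DAO-like gene (LOC107771888), of a type that oxidises auxin in Arabidopsis and rice, had 2.25 for NtZFP8 at 25407 to 25719 of NW_015891923.1 and no AmMIXTA peak on its sequence. It was the only gene of the set past the criteria for NtZFP8 that was absent from the AmMIXTA table. An uncharacterized oxidoreductase At1g06690-like gene (LOC107806016) had 1.80 for AmMIXTA at 8253 to 8771 of NW_015941936.1. No description contained the word vinorine.

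Positions were compared at the 11 genes in both tables. At 10 of them the peaks of the proteins overlapped, by 210 to 400 bp (median 282), and the centres lay 4 to 25 bp apart (median 12.5). The overlap covered 88.8 to 100% of the NtZFP8 peak. All 7 genes past the criteria for both proteins were among these 10. Overlap was the rule over all 752 genes in both tables too: some pair of peaks overlapped at 714 of them (94.9%). Their highest peaks overlapped at 657 (87.4%), with a median centre distance of 14 bp where they did. The AmMIXTA peak reached further to the side of lower coordinates at each of the 10, by 61 to 148 bp (median 122.5), and further to the other side at 4 of them. Centres were correspondingly off the middle of the AmMIXTA peaks. Without peaks that ran past a sequence start or were split in the list, the centre lay above the middle at 24 of 27 AmMIXTA peaks of the set and below it at 3. The same side held 21646 of 26557 AmMIXTA peaks of the full list, so the lean is shared by the list as a whole. For NtZFP8 the centre lay above the middle at 2 of 14 peaks of the set and below it at 11. Below the middle is also where it lay at 14912 of 20432 NtZFP8 peaks of the full list.

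**Figure D2:**
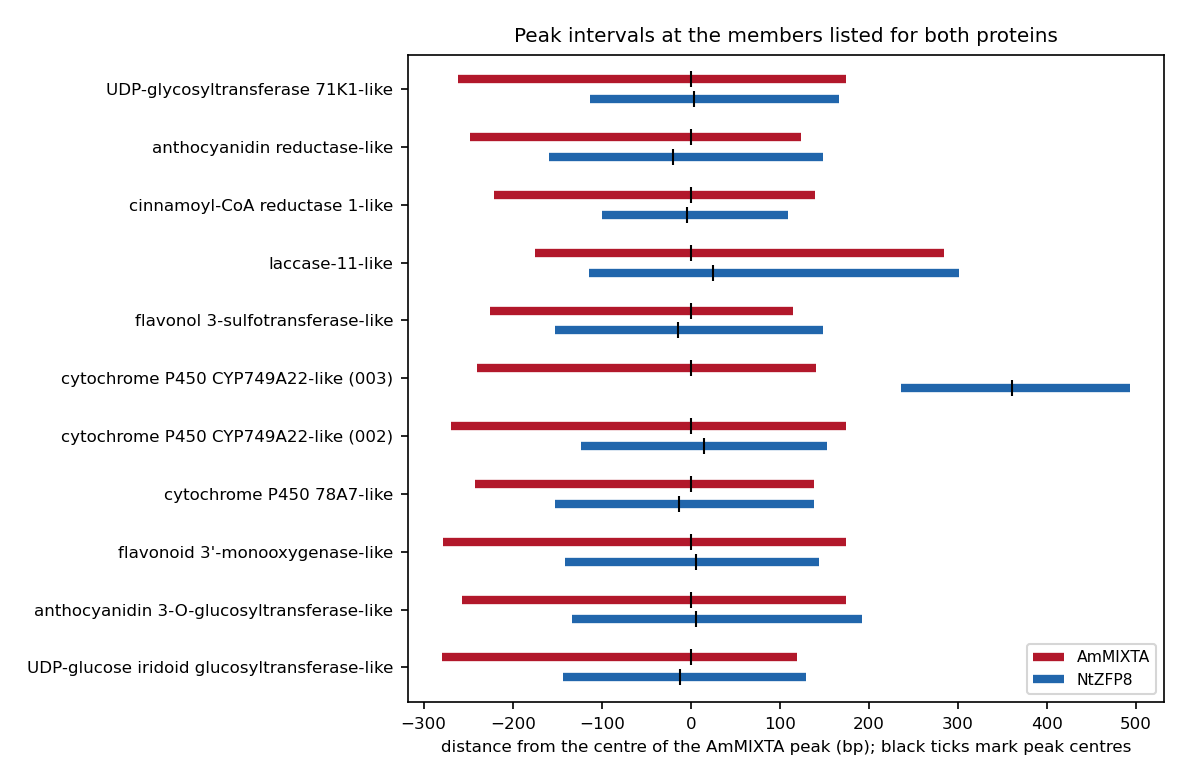
Extent of the AmMIXTA peak (upper bar of each row) and the NtZFP8 peak (lower bar) at the 11 genes listed for both proteins, as distance in bp from the centre of the AmMIXTA peak, with a black tick at each centre. The bars overlap at 10 genes with centres at most 25 bp apart, and the CYP749A22-like gene LOC107784003 is the exception, with a gap of 94 bp.

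The other 20 genes were in 1 table, 17 in that of AmMIXTA and 3 in that of NtZFP8. The full lists were searched at these peaks, because the tables assign few peaks to genes. The peaks of the tables come from the same lists, so this search is not an independent check of absence. No peak of the other protein at any listed score overlapped any of the 20. On the sequences of 15 of the 17 AmMIXTA genes (88.2%) no NtZFP8 peak was listed at all, against 84.9% of all 910 genes found in the AmMIXTA table only. Among those 910 genes, 5 lay on a listed NtZFP8 peak. Of all 222 genes found in the NtZFP8 table only, 4 lay on a listed AmMIXTA peak and 150 (67.6%) had no AmMIXTA peak on their sequence, so the absence of overlap at the 20 is what nearly all such genes show.

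Scores of the set were set beside those of all genes in the tables. At any listed score, the median was 2.19 over the 28 AmMIXTA genes, against 2.55 over all 1662. It was 2.185 over the 14 NtZFP8 genes, against 2.90 over all 974. Past the criteria, the medians were 2.675 over 20 genes and 3.06 over 1195 for AmMIXTA, and 2.71 over 9 genes and 3.54 over 754 for NtZFP8. A score above 3 was reached by 6 of 28 AmMIXTA genes (21.4%, Wilson interval 10.2 to 39.5), against 37.1% of the table. It was reached by 3 of 14 NtZFP8 genes (21.4%, 7.57 to 47.6), against 46.4% of the table. With so few genes, the AmMIXTA interval reaches past the share of its table, as does that of NtZFP8. The 6 for AmMIXTA were UDP-glycosyltransferase 71K1-like, anthocyanidin reductase-like, cinnamoyl-CoA reductase 1-like, phenylalanine ammonia-lyase-like, laccase-11-like and flavonol 3-sulfotransferase-like, and the 3 for NtZFP8 were the first, second and last of these. At the lower end, 7 of the 28 AmMIXTA genes (25.0%) had a score above 2 and up to 2.25, against 11.3% of the table. For NtZFP8 it was 3 of the 14 genes (21.4%), against 10.8% of the table. Among the 3 is the 2-oxoglutarate-dependent dioxygenase DAO-like gene at 2.25, the upper edge of this range. The calls of the 7 and the 3 genes sit close to the criterion, and no difference from the tables is read from counts this small.

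**Figure D3:**
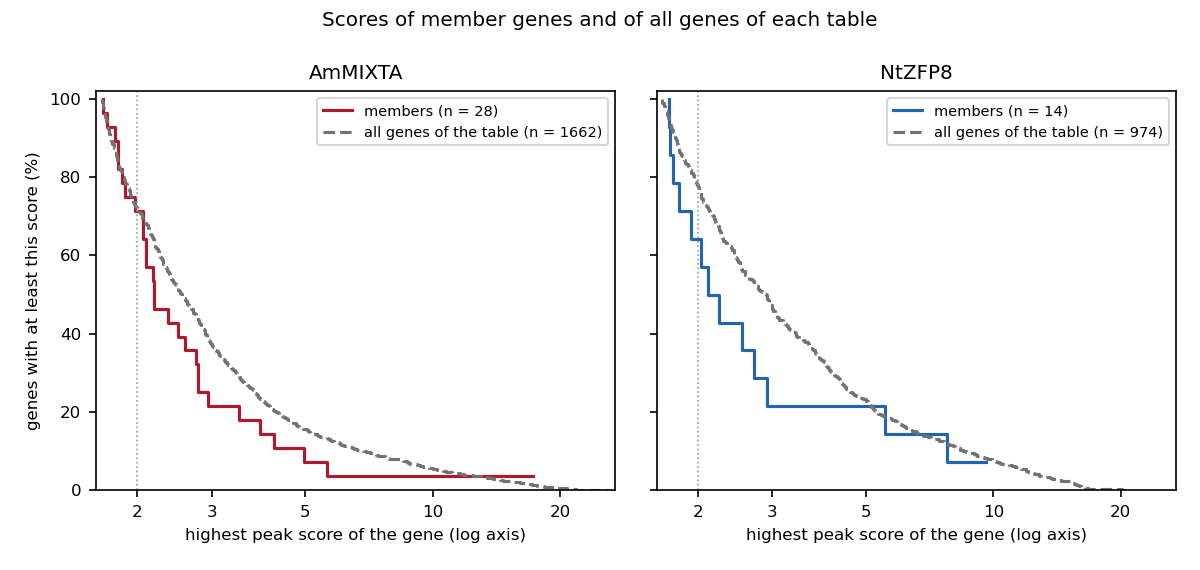
Share of genes (vertical, percent) whose highest peak had at least the score on the horizontal log axis, for AmMIXTA (left) and NtZFP8 (right), with the enzyme genes as solid lines and all genes of the table as dashed lines. The lines meet near a score of 2 for AmMIXTA, and at a score of 3 the enzyme genes stand at 21.4% in both panels, under 37.3% and 46.7% for all genes.

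Each of the 31 genes had a single peak in any table that listed it. Over all genes, 133 of 1662 had more than 1 line in the AmMIXTA table and 142 of 974 in that of NtZFP8. The full lists hold further peaks on the same sequences. These lists number 29197 AmMIXTA and 20957 NtZFP8 peaks, against 1874 and 1235 lines in the gene tables. Most listed peaks thus have no assigned gene. On 7 of the 30 sequences that hold the enzyme genes, 12 further peaks were assigned to no gene, 7 of AmMIXTA and 5 of NtZFP8. The highest lay on the sequence of cinnamoyl-CoA reductase 1-like, where AmMIXTA had a score of 8.25 at 26840 to 27313 and NtZFP8 had 5.45 at 27058 to 27319, 17059 and 17076 bp from the centre of the AmMIXTA peak assigned to the gene. Both scores exceed those at the gene itself. On the sequence of the UDP-glucose flavonoid 3-O-glucosyltransferase 6-like gene, an AmMIXTA peak that ran past the sequence start and ended at 309 scored 4.99, against 2.19 at the gene. Flavonoid 3'-monooxygenase-like had an NtZFP8 peak (32510 to 32798, score 2.03) 1602 bp from the centre of its AmMIXTA peak, the nearest of the 12. The remaining 8 lay between 27117 and 59685 bp away. The distances to the gene bodies themselves were not analysed here, since no annotation on these sequences was used.

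**Figure D4:**
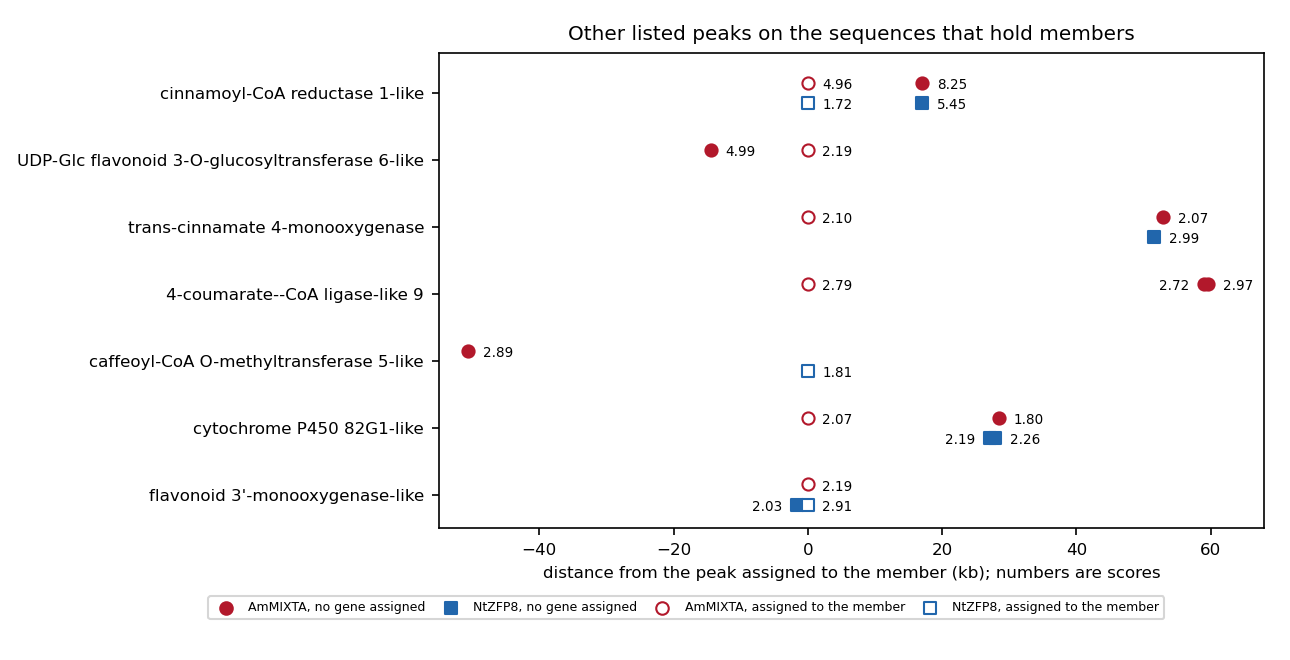
Position in kb of every listed peak with no assigned gene (filled) on 7 sequences that hold enzyme genes, measured from the peak assigned to the gene (open), with circles for AmMIXTA, squares for NtZFP8 and the score beside each. For cinnamoyl-CoA reductase 1-like, the scores beside the filled symbols, 8.25 and 5.45, are higher than those beside the open ones, 4.96 and 1.72.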

How the data were processed

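DAP-seq peaks of AmMIXTA and NtZFP8 were taken from the deposited lists (29197 and 20957 peaks) and gene tables (1874 and 1235 lines). Per the labels' protocols, each protein was made 3 times in wheat germ extract, bound to beads and incubated with DNA (1000 ng) at 25 °C, for 1 h. Per the series' design text, reads were mapped to the tobacco genome of Sierro and colleagues and hits were called against nuclear GFP. How replicates were combined, and with which aligner and caller, is not stated by any source used here. The deposited values are a peak shape score and a p-value per peak, made by the authors, without a column per replicate. Depth per sample is unknown, and intervals cover counting error only. Decimal commas of the NtZFP8 list were read as points.

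Genes were matched by 18 words in their descriptions, of which 3 matched none, and the words for exclusion removed 0 genes. The genes and lists were chosen with earlier results of these data known. A blank description was filled from another line of the same gene. All genes of the set are named, with families assigned by the first matching word. Regions past a sequence start were taken from position 1. Overlap meant at least 1 bp. No test was run, because no values per replicate were used. Parsing and counting were tested on simulated data. Shares carry Wilson intervals (scipy 1.17.1), and tables used pandas 2.3.3 in Python 3.11.15. Other score thresholds, overlaps and memberships were tried. Sequences of the peak regions were not analysed here.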

Additional observations from a re-analysis of the deposited data

Results flagged for a closer look

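A further list of peaks stands in the workbooks of both proteins, with no label that ties it to either, and was used in no comparison above. It holds 618 peaks, and 1 of them lay on a peak of the enzyme genes. The same count over all genes is not given here. This peak, at 32167 to 32334 of NW_015927246.1 with a score of 2.14, is assigned to UDP-glycosyltransferase 71K1-like (LOC107796811), the gene with the highest score of the set for both proteins. It is 168 bp long and lies inside both the AmMIXTA and the NtZFP8 peak, with its centre 32 bp from that of AmMIXTA and 36 bp from that of NtZFP8. A shorter version of the list, of 208 peaks, places it within the gene at a distance of 0. It was picked out because it is a signal in data outside the main measurement. The full list of each protein holds a single peak on this sequence, with other borders and another score, so this peak stands in neither full list. Whether the list belongs to AmMIXTA, to NtZFP8, to the GFP control or to several of them cannot be told apart.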

How the results depend on the processing

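The counts past the criteria depended on the score required. With a score above 3, they fell to 6 genes for AmMIXTA, 3 for NtZFP8 and 3 for both, against 20, 9 and 7 with a score above 2. At any listed score they were 28, 14 and 11. Leaving out the glutathione peroxidase homolog and the At1g06690-like oxidoreductase gave 20, 9 and 7 with a score above 2. Both genes score under 2, so leaving them out could not change these counts. Leaving out peaks assigned to more than 1 gene gave 19 for AmMIXTA and 9 for NtZFP8, and leaving blank descriptions blank gave 8 for NtZFP8. The 7 genes past the criteria for both proteins had overlapping peaks whether an overlap of 1 bp or of 50% of each peak was required. Each gene has a single peak per protein, so the rule of the highest peaks could not give another count. The count of genes of 1 table on a peak of the other protein was 0 for partners at any listed score. It is therefore also 0 for partners past the criteria. Adding 8 genes of the same enzyme families described in other words, an alternative chosen after seeing the data, gave 25, 11 and 8. No paired analysis was possible because the lists hold no column per replicate, and for the same reason no replicate could be left out.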

Other observations

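Some genes of the same enzyme families are described in other words and so were not in the set. They were chosen after their values were seen. Isoleucine N-monooxygenase 1-like (LOC107809681), a P450 of a type that turns amino acids into oximes, had a score of 16.53 for AmMIXTA and 13.62 for NtZFP8, at peaks that end at 385 and 382 of NW_015948617.1. Both are above the scores of every gene described as cytochrome P450. Abscisic acid 8'-hydroxylase 1-like (LOC107798887), a P450 of abscisic acid breakdown, had 2.84 for AmMIXTA (98645 to 99014 of NW_015930380.1) and 1.70 for NtZFP8 (101976 to 102267). Ent-kaurene oxidase (LOC107792085), a P450 of gibberellin synthesis, had 2.52 for AmMIXTA, and 3-epi-6-deoxocathasterone 23-monooxygenase-like (LOC107816861), a P450 of brassinosteroid synthesis, had 1.68. Feruloyl CoA ortho-hydroxylase 1-like (LOC107806106), of the coumarin branch, had 1.73 for AmMIXTA and 2.16 for NtZFP8. Secoisolariciresinol dehydrogenase-like (LOC107826801), of lignan synthesis, had 2.59 for AmMIXTA. Trans-resveratrol di-O-methyltransferase-like (LOC107790083) had 1.65 and zeatin O-xylosyltransferase-like (LOC107777316) had 2.14, both for AmMIXTA.

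In the gene table of another tobacco assembly, ASM71507v2, 29 of the 31 genes were found by identifier, 28 as protein coding. The other, cytochrome P450 CYP72A219-like (LOC107800189), is listed there as a lncRNA. The pair of CYP749A22-like genes stand side by side in that assembly, with 0 genes between them. UDP-glycosyltransferase 71K1-like and UDP-glucose flavonoid 3-O-glucosyltransferase 6-like, which stand on different sequences in the authors' lists, lie there on 1 sequence with 9 annotated genes between them.

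The borders of the peaks recur at fixed distances from their centres. Peaks that ran past a sequence start or were split in the list were left out, 2640 of AmMIXTA and 525 of NtZFP8. Of the remaining 26557 AmMIXTA peaks 21.1% end exactly 174 bp above their centre, and 10 of 27 AmMIXTA peaks of the enzyme genes do. Of the remaining 20432 NtZFP8 peaks 33.2% begin exactly 139 bp below their centre, and 6 of 14 peaks of the enzyme genes do.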
